A study of Mus musculus with 13 samples.

Results

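NIPBL intervals that met neither the cohesin subunit Rad21 nor the Mediator subunit Med1 made up most of the NIPBL peak list of sorted CD4+ CD8+ double-positive thymocytes, immature T cells of the thymus that carry both coreceptors. They are called NIPBL-only intervals here. They were chosen by width and position alone, as the NIPBL intervals of the authors' list with 1000 bp or less that shared not 1 bp with any interval of the Rad21 list or of the Med1 list. Of 51994 NIPBL intervals, 36200 met this rule, which is 69.6% (95% exact binomial interval 69.2 to 70.0%, counting error only). Among the 49894 narrow NIPBL intervals, those of 1000 bp or less, the share was 72.6% (72.2 to 72.9%). The membership is therefore set by the lists themselves, and the shares and overlaps that the rule fixes are given as descriptions, with no test.

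All 3 lists came from sorted double-positive thymocytes labelled wild type, on a mixed C57BL\6 and 129 background, with 1 ChIP-seq library per protein. For NIPBL and for Med1 the cells were lysed in a buffer with 150 mM NaCl, and the labels name a shared input library. For Rad21 the buffer held 800 mM NaCl, and the input was a separate one. The other libraries of the study (RNA-seq and Hi-C of wild type and Rad21 KO thymocytes, and the inputs) do not enter this account. Lists with 1 library per protein have no replicate error, so no difference below has a replicate test. The intervals on percentages and medians cover counting error over intervals, which are not replicates.

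NIPBL, together with its partner MAU2, loads the ring-shaped cohesin complex onto DNA and stimulates its motor activity; NIPBL is the gene most often mutated in Cornelia de Lange syndrome. Rad21 is the subunit that closes the cohesin ring, and cohesin is known to gather at sites bound by CTCF, which need not be the places where it was loaded. Med1 is a subunit of Mediator, the complex that links transcription factors at enhancers to RNA polymerase II at promoters. NIPBL has been described at active promoters and enhancers in several mammalian cell types. The comparison therefore asks where an NIPBL interval was listed without a listed Rad21 or Med1 interval on it.

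The 3 lists differed in length. The NIPBL list held 51994 intervals covering 20.9 Mb, the Rad21 list 27207 intervals covering 8.77 Mb and the Med1 list 15112 intervals covering 5.96 Mb. Of the narrow NIPBL intervals that were not NIPBL-only, 8520 overlapped Rad21 alone (17.1%), 4049 overlapped Med1 alone (8.12%) and 1125 overlapped both (2.25%). Seen from the other lists, 37.5% of Rad21 intervals (36.9 to 38.0%) and 37.9% of Med1 intervals (37.1 to 38.7%) overlapped an NIPBL interval of any width. The lists give no height, score or read count per interval and no read total per library. Absence from the Rad21 or Med1 list therefore says that no interval was listed there, not that the protein was absent. How the depth of each library bears on this was not tested. Nor was the part of the lysis buffer and input, which for Rad21 differed from those for NIPBL.

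NIPBL-only intervals were short. Their median width was 288 bp (95% interval 286 to 289 bp), with quartiles of 240 and 396 bp and a range of 154 to 1000 bp. The median was 301 bp (296 to 304 bp) for narrow NIPBL intervals with Rad21, 386 bp (373 to 396 bp) for those with Med1 and 379 bp (359 to 398 bp) for those with both. The median of NIPBL-only intervals was the lower one in 17 of 20 chromosomes against the class with Rad21, in 19 of 20 against the class with Med1 and in 20 of 20 against the class with both, chromosome Y left out. Width is part of the rule, and an interval that spans more bases has more places at which 1 shared base can fall.

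The share of NIPBL intervals without either protein moved with width. It stood at 72.8% (71.3 to 74.3%) up to 200 bp, at its highest of 77.5% (76.9 to 78.0%) over 200 and up to 300 bp, and at 55.8% (52.4 to 59.0%) over 900 and up to 1000 bp. Past the width limit it was 50.9% (48.5 to 53.3%) up to 1500 bp, and 22.5% (13.5 to 34.0%) for the 71 intervals over 2000 bp. Overlap with each list was more frequent among the widest intervals. Overlap with Med1 was found for 6.55% of NIPBL intervals over 200 and up to 300 bp, for 24.6% over 900 and up to 1000 bp and for 39.4% over 2000 bp. For Rad21 these shares were 17.4%, 25.6% and 56.3%.

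**Figure D1:**
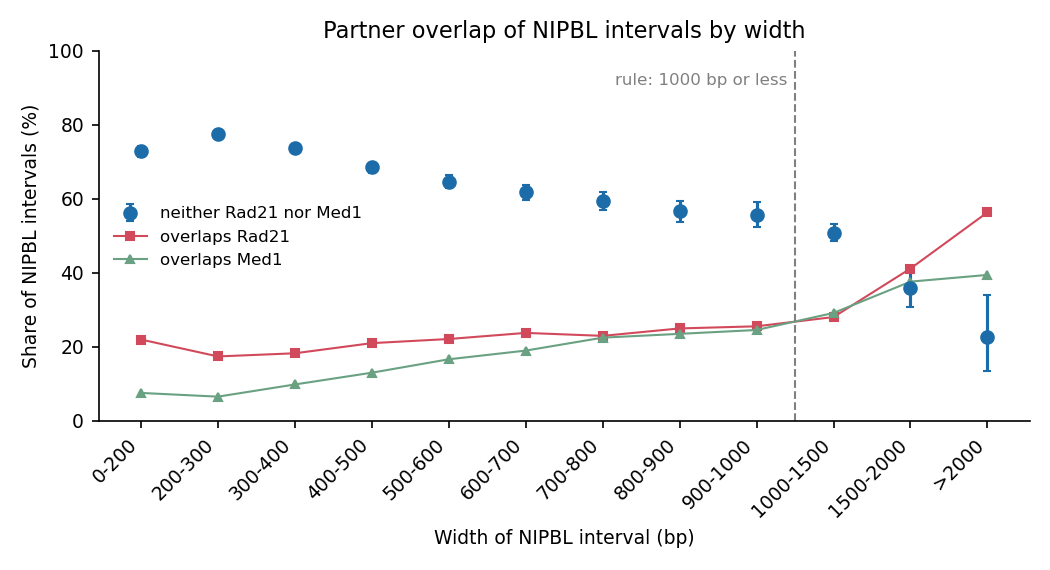
Share of NIPBL intervals (y axis, percent) that overlap neither list (circles, with 95% exact binomial intervals), the Rad21 list (squares) or the Med1 list (triangles), by width of the NIPBL interval in bp (x axis; the dashed line marks the 1000 bp limit of the rule). The share with neither is highest at 77.5% over 200 and up to 300 bp and lowest at 22.5% over 2000 bp.

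The width limit did not fall at a break in the list. It kept 44 NIPBL-only intervals of 991 to 1000 bp and left out 38 of 1001 to 1010 bp that also met neither protein. Among the widest members, in mm9 coordinates, were chr15:9000702-9001701 (1000 bp), 14.8 kb from the nearest Rad21 interval and 48.2 kb from the nearest Med1 interval, and chr19:7342501-7343500 (1000 bp), 3.59 kb from Rad21 and 424 bp from Med1. The other 3 of the 5 widest, chr1:141318461-141319460, chr11:11567637-11568636 and chr1:177570395-177571393, lay 14.0 to 16.2 kb from Rad21. Just outside stood chr13:70776009-70777009 (1001 bp), 5.56 kb from Rad21 and 2055 kb from Med1, and, also at 1001 bp, chr11:53163848-53164848 and chr17:36105979-36106979. At the overlap limit, 126 members lay 10 bp or less from a Rad21 or Med1 interval, 13 of them directly against it, while 93 narrow NIPBL intervals were left out for an overlap of 10 bp or less. Of the abutting members, chr10:122197634-122197892 and chr11:57911148-57911818 stood against a Rad21 interval and chr10:121078827-121079020 against a Med1 interval. Among the intervals left out for the smallest overlap, chr11:70245876-70246435 touched Rad21, and chr1:60805916-60806157 and chr1:194571614-194571976 touched Med1.

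Most NIPBL-only intervals had a Rad21 interval in their wider surroundings. The median gap from a NIPBL-only interval to the nearest Rad21 interval was 7603.5 bp (7460 to 7771 bp), with quartiles of 2316 and 20086 bp. A Rad21 interval lay within 1000 bp of 14.2% of them (13.8 to 14.6%), within 10000 bp of 56.9% (56.4 to 57.4%) and within 100000 bp of 96.8% (96.6 to 97.0%). Narrow NIPBL intervals with Med1 and without Rad21, the other class that by its rule holds no Rad21, had a median gap of 9213 bp (8666 to 9868 bp), and 52.1% of them (50.5 to 53.6%) had Rad21 within 10000 bp. The median gap to Rad21 was lower for NIPBL-only intervals in 18 of 20 chromosomes.

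Med1 was farther away. The median gap from a NIPBL-only interval to the nearest Med1 interval was 26308.5 bp (25726 to 26870 bp), with quartiles of 6735 and 80046 bp, and a Med1 interval lay within 1000 bp of 8.58% (8.29 to 8.87%) and within 10000 bp of 30.8% (30.3 to 31.2%). Rad21 was nearer than Med1 for 71.8% of NIPBL-only intervals (71.3 to 72.2%); the Med1 list was also the shorter one. Narrow NIPBL intervals with Rad21 and without Med1 had a median gap to Med1 of 27224.5 bp (26096 to 28434 bp), an interval that overlaps that of the NIPBL-only class. The 2 classes parted at short range: Med1 lay within 1000 bp of 8.58% of NIPBL-only intervals, against 5.58% (5.10 to 6.08%) of NIPBL intervals with Rad21. Over 20 chromosomes the median gap to Med1 was lower for NIPBL-only intervals in 13 and higher in 7.

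**Figure D2:**
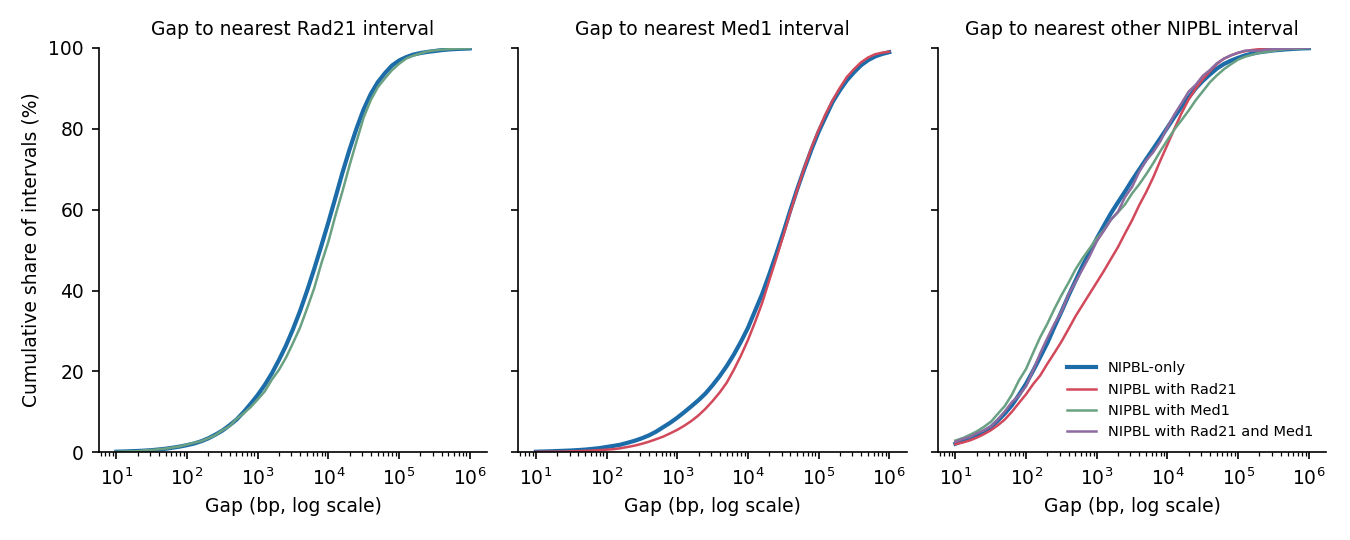
Cumulative share of narrow NIPBL intervals (y axis, percent) by the gap in bp (x axis, log scale) to the nearest Rad21 interval (left), Med1 interval (middle) and other NIPBL interval (right), for NIPBL-only intervals (thick line) and for the classes with Rad21, with Med1 or with both where the rule of the class leaves a gap to measure. In the left panel, 56.9% of NIPBL-only intervals and 52.1% of those with Med1 lie within 10000 bp of Rad21. In the middle panel, 30.8% of NIPBL-only intervals and 27.8% of those with Rad21 lie within 10000 bp of Med1. The class with Rad21 lies lowest in the right panel up to about 10000 bp.

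Rad21 and Med1 were listed most often in the close flanks of NIPBL-only intervals. Counted at positions on both sides of the interval centre in 250 bp steps, Rad21 covered 2.72% of positions at 625 bp, its highest value beyond 500 bp, against a mean of 1.41% between 15 and 20 kb, a ratio of 1.93. For Med1 the values were 1.81% at 625 bp and 0.726% between 15 and 20 kb, a ratio of 2.49. Around narrow NIPBL intervals with Med1 the Rad21 ratio was 1.81, and around those with Rad21 the Med1 ratio was 1.42. The emptied centre comes from the rule. In the opposite direction, of the 17014 Rad21 intervals that overlapped no NIPBL interval, 6.34% (5.98 to 6.72%) had a NIPBL-only interval within 1000 bp, and of the 9388 such Med1 intervals 10.6% (9.99 to 11.2%) did.

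**Figure D3:**
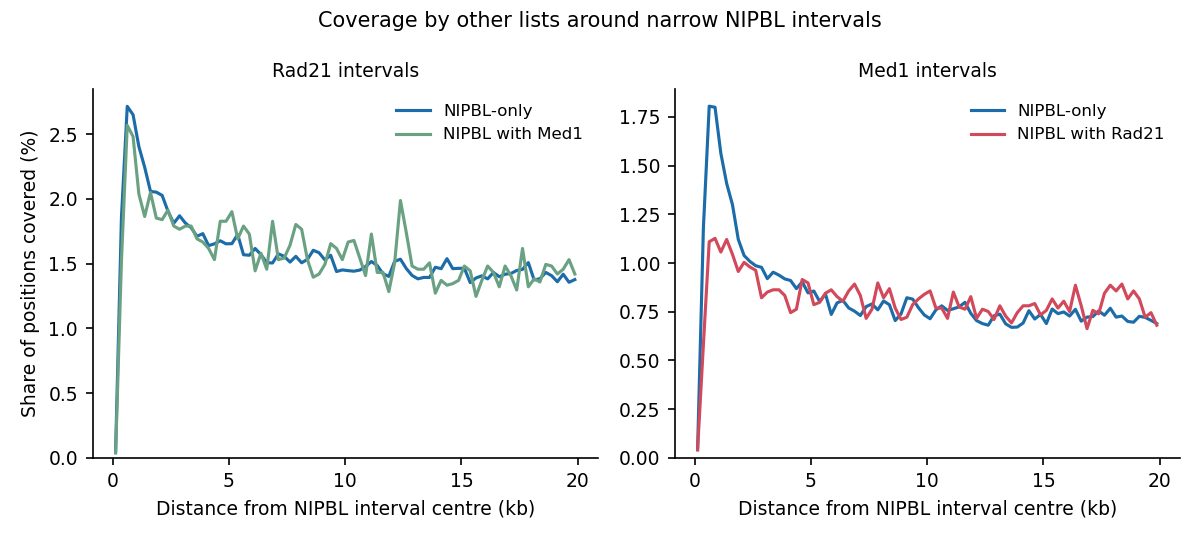
Share of positions covered by Rad21 intervals (left) and Med1 intervals (right), in percent on the y axis, by distance in kb from the centre of narrow NIPBL intervals on the x axis, both sides pooled, for NIPBL-only intervals and for the comparison class named in each panel. Coverage around NIPBL-only intervals is highest at 625 bp, 2.72% for Rad21 and 1.81% for Med1; the dip at the centre is set by the rule.

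Taking both proteins at once, 79.1% of NIPBL-only intervals (78.6 to 79.5%) had neither a Rad21 nor a Med1 interval within 1000 bp, and 32.6% (32.1 to 33.0%) had neither within 10000 bp. Within 10000 bp, 20.2% had both, 36.7% had Rad21 and no Med1, and 10.6% had Med1 and no Rad21. Members far from both were few: 734 lay over 100 kb from every Rad21 and Med1 interval and 33 over 1 Mb. The most remote one named here, chr14:110438198-110438430 (233 bp), was 4136 kb from Rad21, 3719 kb from Med1 and 1636 kb from the next NIPBL interval, which was itself the second most remote, chr14:112073950-112074193 (244 bp). The third, chrX:23269915-23270367 (453 bp), was 2873 kb from Rad21 and 2730 kb from Med1. The remaining 2 were chr14:82285568-82285748 and chr12:96933817-96934067, of 181 and 251 bp. Of these 5, the one on X alone was wider than the median of all NIPBL-only intervals.

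NIPBL-only intervals tended to lie beside other NIPBL intervals. The median gap to the nearest other NIPBL interval was 824 bp (795 to 856 bp), and 42.4% (41.9 to 42.9%) had one within 500 bp. Short gaps were the most common: 9.63% of members had a gap of 50 bp or less and 1.79% one over 450 and up to 500 bp. Narrow NIPBL intervals with Rad21 stood farther apart, with a median of 1876 bp (1708 to 2049 bp), and 33.6% (32.6 to 34.7%) had a neighbour within 500 bp; the median was lower for NIPBL-only intervals in 20 of 20 chromosomes. The classes with Med1 (778 bp, 661 to 876 bp) and with both proteins (906 bp, 728 to 1044 bp) had medians whose intervals overlapped that of NIPBL-only intervals, and the direction was mixed over chromosomes, lower for NIPBL-only intervals in 7 and 13 of 20.

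The nearest other NIPBL interval was of the same class a little more often than the list holds that class. For 72.6% of NIPBL-only intervals (72.2 to 73.1%) it was another NIPBL-only interval, which make up 69.6% of the list, and among the 15361 with a neighbour within 500 bp the share was 76.0%. An interval with Rad21 alone was the close neighbour of 11.8% of these, while such intervals make up 16.4% of the list; for Med1 alone the values were 6.05% and 7.79%, and for wide intervals 4.89% and 4.04%. The other narrow classes exceeded their share of the list by more beside their own kind. Within 500 bp, a further interval with Rad21 alone was the neighbour of 29.1% of narrow intervals with Rad21 alone, and a further interval with Med1 alone that of 34.6% of those with Med1 alone, and for the class with both proteins the value was 22.4%, at 2.16% of the list. Where the nearest neighbour lay within 500 bp, it was NIPBL-only for 61.4% of intervals with Rad21 alone. This share was 48.4% for those with Med1 alone and 35.5% for those with both. Neighbouring intervals of a class can lie on opposite sides of the same Rad21 or Med1 interval, so these shares are not independent.

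Part of the NIPBL-only intervals lay in stretches in which a further NIPBL interval did meet Rad21 or Med1. With NIPBL intervals joined at gaps of 500 bp or less, 20839 members (57.6%) stayed alone, 10193 (28.2%) were joined only to NIPBL intervals with neither protein, and 5168 (14.3%, 13.9 to 14.6%) shared a stretch with an interval that overlapped Rad21 or Med1. The last share was 3.77% at a joining gap of 100 bp and 42.5% at 5000 bp. Joined at 500 bp, the 36200 members came to 28640 separate places. In 25350 of these no NIPBL interval overlapped Rad21 or Med1. A Rad21 or Med1 interval lying only in the gap between joined NIPBL intervals was not counted. Stretches of several NIPBL intervals, none of them overlapping Rad21 or Med1, numbered 4511, with a median span of 995 bp and a longest span of 7380 bp. Those with at least 1 NIPBL interval meeting Rad21 or Med1 numbered 3290, with a median span of 1331 bp and a longest span of 13882 bp.

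**Figure D4:**
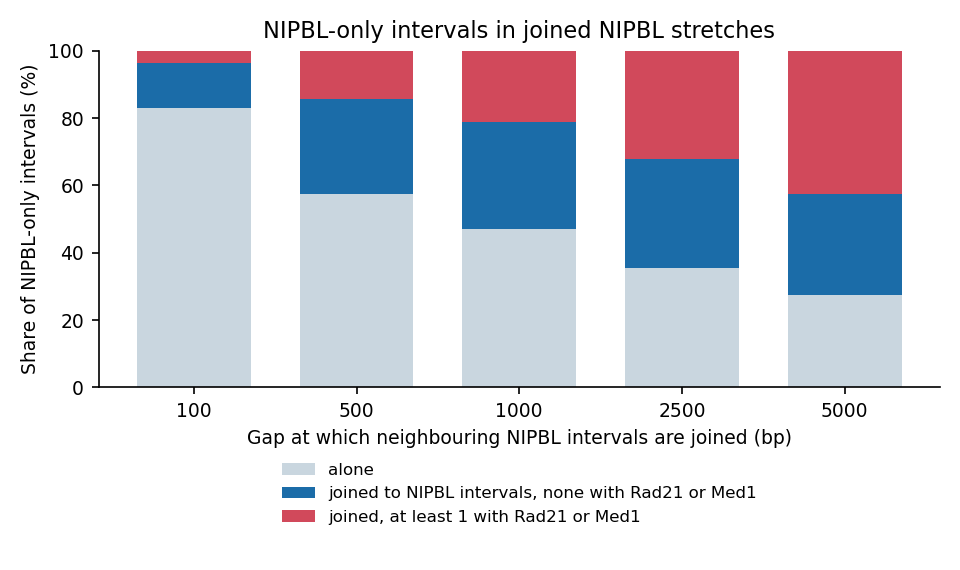
Share of the 36200 NIPBL-only intervals (y axis, percent) that stay alone (grey), are joined only to NIPBL intervals with neither protein (blue) or share a stretch with an NIPBL interval that overlaps Rad21 or Med1 (red), by the gap in bp at which NIPBL intervals are joined (x axis). The red part is 3.77% at 100 bp, 14.3% at 500 bp and 42.5% at 5000 bp.

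Spacing went together with distance from the other proteins. NIPBL-only intervals with an NIPBL neighbour within 500 bp had a median gap of 4788 bp (4611 to 4945 bp) to Rad21 and 20380 bp (19629 to 21210 bp) to Med1. The 7134 members with no NIPBL neighbour within 10 kb (19.7%) had medians of 21338 bp (20661 to 22189 bp) and 56470.5 bp (54046 to 58696 bp). Both differences had the same direction in 20 of 20 chromosomes. Rad21 lay within 10 kb of 66.7% (66.0 to 67.5%) of the closely spaced members, against 24.7% (23.7 to 25.7%) of those without a neighbour. Width did not follow the same order, at a median of 290 bp (288 to 293 bp) with a close neighbour, 281 bp (280 to 283 bp) with one at 500 bp to 10 kb and 296 bp (293 to 300 bp) with none.

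Members over 500 bp lay farther from Rad21 than shorter ones. The 5660 members over 500 bp had a median gap to Rad21 of 9061 bp (8710 to 9640 bp), and the 11141 members of 250 bp or less one of 6856 bp (6568 to 7124 bp). For Med1 these medians were 27936.5 bp (26674 to 29858 bp) and 25585 bp (24535 to 26670 bp). Members over 350 and up to 500 bp had 26464 bp (24996 to 27847 bp), an interval that overlaps both. The rule leaves out NIPBL intervals that overlap Rad21, 17.4% of those over 200 and up to 300 bp and 25.6% over 900 and up to 1000 bp. Gaps by width are therefore not independent of the rule. A close NIPBL neighbour, within 500 bp, showed no steady order with width. It was found for 43.3% (42.4 to 44.2%) of members of 250 bp or less, 38.8% (38.0 to 39.6%) over 250 and up to 350 bp, 47.6% (46.3 to 48.9%) over 350 and up to 500 bp and 44.1% (42.8 to 45.4%) over 500 bp.

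Over longer distances NIPBL-only intervals formed runs. Chained at gaps of 10 kb or less, 9656 members (26.7%) stood singly, 13194 (36.4%) in runs of 2 to 4, 6694 (18.5%) in runs of 5 to 9 and 6656 (18.4%) in 418 runs of 10 or more, whose median span was 30.5 kb. Of those 418 runs, 31 held neither a Rad21 nor a Med1 interval between their ends, 56 held no Rad21 and 211 no Med1. No like count is given for runs of other NIPBL intervals or for other stretches of such span. These counts are therefore not read as a trait of the members. With chromosome 18 left out, the longest run by number lay at chr5:66214115-66348890. It held 71 members over 135 kb, 21 Rad21 intervals, 2 Med1 intervals and 22 other NIPBL intervals. At chr12:109147082-109244003, 64 members stood in 96.9 kb with 9 Rad21 intervals, no Med1 interval and 10 other NIPBL intervals. The run at chr14:54756727-54873929 had 62 members with 6 Rad21 and 2 Med1 intervals. The run at chr6:71248603-71348359 had 61 members with 29 Rad21 intervals and no Med1 interval, and the one at chr16:10663943-10790317 had 66 members with 23 Rad21 and 6 Med1 intervals. Wide NIPBL intervals, 4.04% of the list, numbered 1 to 6 per run in these 5.

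At the scale of 1 Mb the members followed the other lists. Of 2211 bins with an interval of any list, 1988 held a NIPBL-only interval, with a median of 9 per bin and up to 152. The 222 bins with the most members held 39.2% of them. Across 2208 bins without chromosome Y, the number of members had a Pearson correlation of 0.89 (Spearman 0.92) with the number of Rad21 intervals and of 0.57 (Spearman 0.70) with the number of Med1 intervals. With the number of other NIPBL intervals it was 0.88 (Spearman 0.90), and between Rad21 and Med1 intervals 0.67 (Spearman 0.73). The lists thus rose and fell together. The correlation of the other NIPBL intervals with Rad21 intervals is not given here. Whether the link to Rad21 is particular to NIPBL-only intervals was therefore not tested. These are descriptions across bins, which share the sequence and gene content of their region and come from single libraries. In 126 bins members stood without any Rad21 interval, in 303 without any Med1 interval and in 94 without either. The reverse, Rad21 or Med1 without a member, was found in 223 bins. How many of all bins lacked Rad21 or lacked Med1 is not given here, so these counts have no base share. Chosen after the values were seen, the fullest bin was at 80 to 81 Mb of chromosome 10, with 152 members, 67 Rad21 and 30 Med1 intervals, while 115 members at 52 to 53 Mb of chromosome 17 stood with 34 Rad21 and 2 Med1 intervals.

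The NIPBL-only share was alike on most chromosomes. Over the 19 autosomes and X it ran from 66.7% to 76.0% of narrow NIPBL intervals, with a median of 73.1%. The 2 lowest were chromosome 17 at 66.7% (64.9 to 68.5%) and chromosome 1 at 68.1% (66.5 to 69.7%). On both, Med1 was listed more often relative to Rad21. There were 1.11 Med1 intervals per Rad21 interval on chromosome 17 and 0.992 on chromosome 1, against 0.409 to 0.577 on the other 17 autosomes and X. Overlap with Med1 reached 18.1% of narrow NIPBL intervals on chromosome 17 and 15.9% on chromosome 1, against 7.84% to 11.2% elsewhere, while overlap with Rad21 was 19.4% and 19.6% on these 2 chromosomes, within the range of 17.1% to 21.5% over all 20. The median gap from NIPBL-only intervals to Med1 was 11514.5 bp on chromosome 17 and 13837 bp on chromosome 1. Per Mb, Med1 intervals numbered 15.6 on chromosome 17 and 9.30 on chromosome 1. Chromosome 11 held 10.3 per Mb at a NIPBL-only share of 71.7%. What raised the number of Med1 intervals relative to Rad21 on chromosomes 1 and 17 was not tested. Without chromosomes 1, 17 and Y the NIPBL-only share was 73.4%.

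**Figure D5:**
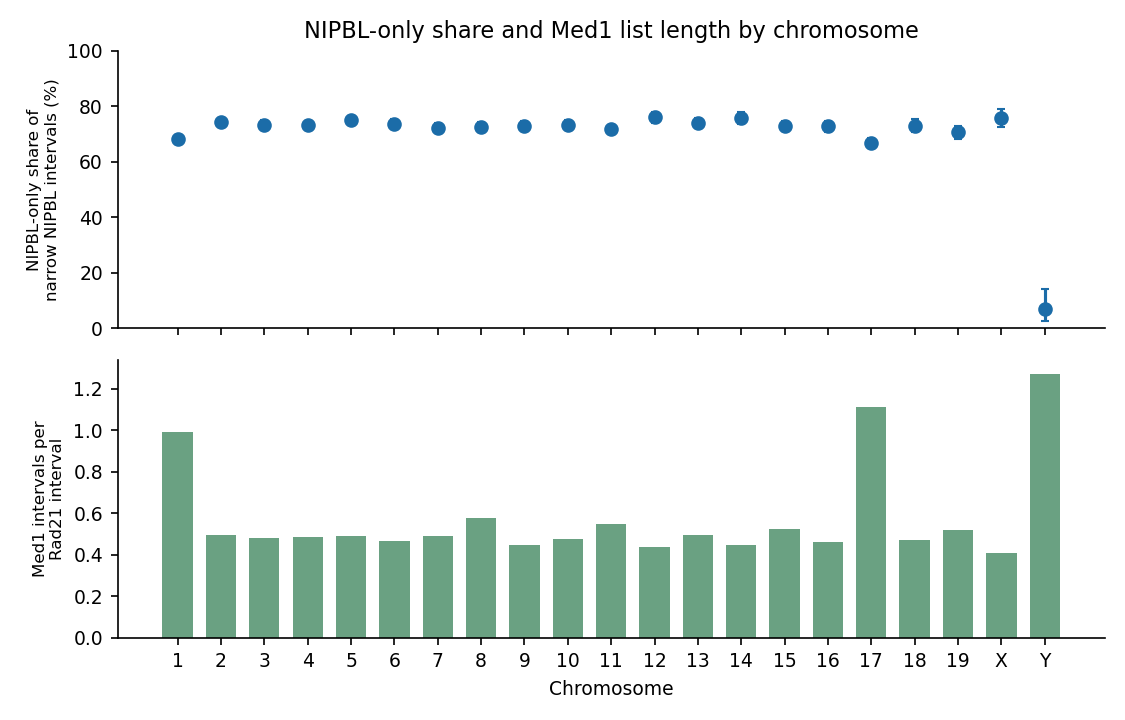
NIPBL-only share of narrow NIPBL intervals in percent with 95% exact binomial intervals (top) and number of Med1 intervals per Rad21 interval (bottom), by chromosome (x axis). Chromosomes 1 and 17 have 0.992 and 1.11 Med1 intervals per Rad21 interval and the lowest NIPBL-only shares apart from Y, 68.1% and 66.7%; Y stands at 6.82%.

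The sex chromosomes stood apart from the autosomes. X held 3.33 NIPBL-only intervals per Mb between its first and last listed interval, against 10.1 to 27.8 on the autosomes. Its other lists were sparse too, with 3.40 Rad21 intervals per Mb against 8.12 to 18.8 on the autosomes, and 1.39 Med1 intervals per Mb against 3.67 to 15.6. Per Rad21 interval there were 0.978 NIPBL-only intervals on X and 1.21 to 1.48 on the autosomes. The whole NIPBL list showed the same direction, with 1.33 intervals per Rad21 interval on X and 1.69 to 2.16 on the autosomes. The NIPBL-only share on X, 75.9% of narrow NIPBL intervals, lay within the range of the autosomes. The members of X were wider, with a median of 324 bp, and farther from Rad21, at 18223 bp, than those of any autosome. The labels do not give the sex of the animals, and the number of X copies in the cells and the density of the lists cannot be told apart. Y held 88 NIPBL intervals in a span of 2.56 Mb, of which 6 were NIPBL-only (6.82%, 2.54 to 14.3%) and 92.0% overlapped Med1. A bin at 3 to 4 Mb of chromosome 11, chosen after its values were seen, was crowded in all 3 lists in a like way, with 42 NIPBL-only intervals, 103 other NIPBL intervals, 91 Rad21 and 103 Med1 intervals.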

How the data were processed

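The authors deposited 1 interval list per ChIP library, with chromosome, start and end and no height, score or p-value. Per the submitters' processing notes the build is mm9. The names of the lists point to filtering, duplicate removal and the peak caller SWEMBL; its settings, the aligner and the control library are not stated in the labels or headers. Starts were read as counted from 0 (BED convention) and are printed counted from 1. No interval of a list overlapped another of the same list. Gaps, overlaps and runs were computed in Python 3.11.15 with numpy 2.4.6, pandas 2.3.3 and scipy 1.17.1, tested on simulated intervals, and the number of members was checked with bedtools 2.31.1. Intervals are exact binomial (Clopper-Pearson) for shares and order-statistic for medians, at 95%. The members and comparisons were chosen with earlier results of these data known. Regions named are the widest members, those farthest from Rad21 and Med1, those at the limits of the rule and the longest runs, without chromosome 18. No gene annotation or genome of mm9 was used here, so positions relative to genes, sequences, motifs and the RNA-seq values are not analysed here.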

Additional observations from a re-analysis of the deposited data

How the results depend on the processing

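Of 64 values under 8 alternatives, 32 stayed within the counting interval of the reported value and 32 did not. The number of members was instead held to within 1.5 times. The median share over chromosomes was held to the wider range from the lowest to the highest chromosome. Chosen after seeing the data were 2 alternatives. They left out members in a 500 bp stretch that met Rad21 or Med1, and chromosomes 1, 17 and Y. The number of members lay between 28622 and 39387 under all 8. When only coverage of 50% or more counted as shared, the NIPBL-only share was 78.9% (median over chromosomes 79.5%), the median width 294 bp, the median gaps 6998 bp to Rad21 and 24020 bp to Med1, and 74.7% of members stood in runs. When a gap of 500 bp counted as shared, the share was 63.4% (chromosomes 64.3%), the gaps 8966 bp to Rad21, 29554 bp to Med1 and 1099 bp to NIPBL, and 70.3% stood in runs. At 1000 bp the share was 57.4% (chromosomes 58.8%), the gaps 10142, 32304 and 1394.5 bp, and 67.8% stood in runs. With no width limit the share was 71.6% and the width 291 bp. At a limit of 500 bp the share was 75.2%, the width 272 bp, the gap to Rad21 7346.5 bp, and 70.8% stood in runs. Leaving out members whose stretch, joined at 500 bp, held an NIPBL interval meeting Rad21 or Med1 gave a share of 62.2% (chromosomes 63.2%). The values were still taken on single intervals, not on joined ones. The gaps were 9344.5 bp to Rad21, 29888 bp to Med1 and 1374 bp to NIPBL, and 69.3% stood in runs. Without chromosomes 1, 17 and Y the share was 73.4% and the gap to Med1 28369.5 bp. These shifts follow from which intervals each setting admits. On autosomes and X only, all 8 values stayed within these limits. That setting removed 6 of 36200 members, and the median over chromosomes left out Y already, so these values could hardly move.

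No paired analysis was possible because the interval lists hold 1 library per protein and no test was made. The alternatives planned for gene starts and for the RNA-seq test were not run, since no annotation of mm9 was used here. Read depth per library is unknown, so how many members a deeper Rad21 or Med1 library would remove cannot be given.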
